A study of Mus musculus with 63 samples.

Results

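The oxidative phosphorylation machinery of mouse pancreatic beta cells was described here through its nuclear-encoded subunit genes. They were taken by symbol: genes beginning NDUFA, NDUFB, NDUFC, NDUFS or NDUFV and a digit, the SDHA to SDHD genes, and genes beginning UQCR, COX4 to COX8 or ATP5, with the NDUFAF assembly factors left out. The rule found 84 of the 20306 genes in the deposited table: 37 of complex I, 4 of complex II, 8 of complex III, 18 of complex IV and 17 of ATP synthase. Of these, 82 passed the filter on low counts, and Cox8b and Cox8c did not. A few names are wider than the complexes: Atp5s and Atp5sl are not core subunits of ATP synthase, and Ndufa4, named for complex I, is now placed with complex IV.

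The 63 libraries came from sorted beta cells of 9 groups, and every animal carried 1 Cherry allele and an Ins2-Cre transgene, in which the insulin 2 promoter drives Cre so that beta cells carry the red mCherry reporter. Dissociated islets were sorted for mCherry. Cells of the ICR strain were taken late in embryonic life (E18.5, n = 4), on postnatal day 1 (P1, n = 3), day 7 (P7, n = 3) and day 10 (P10, n = 5), and from adults of 84 to 364 days with blood glucose of 103 to 190 mg/dl (n = 21). The type 1 model was NOD-ICR: T1ND mice were labelled non-diabetic (n = 7, 82 to 212 days, 108 to 245 mg/dl), and T1D mice diabetic (n = 4, 98 to 150 days, 311 to 358 mg/dl, with 1 more mouse listed only as above a limit). The type 2 model carried the leptin mutation Ob: T2H mice were BTBR Ob/+ (n = 9, 53 to 179 days, 103 to 271 mg/dl) and T2D mice were BTBR/mix Ob/Ob (n = 7, 58 to 78 days, 408 to 534 mg/dl, with 5 more mice listed as above a limit). In each of these last groups 2 mice had 2 copies of Ins2-Cre. T2D and T2H therefore differed in strain label and age as well as in genotype. The labels do not say whether the embryonic and neonatal libraries came from separate animals or litters, and 2 of the P7 and 2 of the P10 libraries share a number in their titles (the P10 pair with different suffixes), so the p-values may measure technical spread there.

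Complexes I to IV pass electrons from NADH and succinate to oxygen. Complexes I, III and IV pump protons out of the mitochondrial matrix, and ATP synthase uses the returning protons to make ATP. In beta cells the ATP made from glucose closes potassium channels, which opens calcium channels and releases insulin. Most subunits are made from nuclear genes and imported, while a small core is made from mitochondrial DNA. The mitochondrially encoded subunits were not analysed here. Several subunits of complex IV come as paired isoforms, one used in most tissues and one in heart and skeletal muscle: Cox6a1 and Cox6a2, and Cox7a2 and Cox7a1, are such pairs.

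Promoters of these genes are textbook targets of the nuclear respiratory factors, NRF1 and the ETS-family factor GABP. RefSeq promoters (GRCm38.p6) were matched for 66 of the 84 genes, as windows of 300 bases, 250 before the start and 50 after it. The NRF1 palindrome, GCGCA followed by its reverse complement, was in 5 of these 66 windows (7.58%) against 0.977% of 27025 promoters of the same length. The ETS letters CCGGAAG were in 15 (22.7%) against 9.12%, and the YY1 letters ATGGCGG in 9 (13.6%) against 4.19%, with 8 of the 9 in complex I genes. The E box CACGTG was in 5 (7.58%) against 7.24%. Both strands were searched, and no overlap between motifs was removed. A match describes letters only and shows no binding. The 120 bases just before the RefSeq start are given 5′ to 3′ on the gene's strand for 5 genes of the results below, with NRF1 or ETS letters in capitals. Ndufa11, a complex I gene (chr17:56717642-56717761, plus strand), Atp5k of ATP synthase (chr5:108434400-108434519, minus) and Cox6a1 of complex IV (chr5:115348959-115349078, minus; ETS as its reverse complement) hold a match. Ndufa9 of complex I (chr6:126849145-126849264, minus) and Cox7a1 of complex IV (chr7:30184051-30184170, plus) hold none of the 4 motifs in this stretch. Elsewhere in their windows of 300 bases, Ndufa9 has a YY1 match, Cox6a1 an NRF1 match and Atp5k an ETS match. All 5 genes were lower in the adult than in E18.5.
Ndufa11: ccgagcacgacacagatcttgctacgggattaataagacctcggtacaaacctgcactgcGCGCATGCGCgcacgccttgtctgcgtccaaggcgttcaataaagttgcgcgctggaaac
Atp5k: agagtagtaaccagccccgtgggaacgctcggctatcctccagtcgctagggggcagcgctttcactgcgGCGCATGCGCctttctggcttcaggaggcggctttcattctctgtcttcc
Cox6a1: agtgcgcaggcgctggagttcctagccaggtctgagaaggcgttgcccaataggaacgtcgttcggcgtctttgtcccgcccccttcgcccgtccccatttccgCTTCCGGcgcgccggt
Ndufa9: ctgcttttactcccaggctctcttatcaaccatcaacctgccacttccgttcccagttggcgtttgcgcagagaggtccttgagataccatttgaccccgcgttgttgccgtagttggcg
Cox7a1: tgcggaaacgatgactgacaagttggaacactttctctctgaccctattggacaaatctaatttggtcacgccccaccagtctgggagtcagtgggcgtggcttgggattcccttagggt

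Library totals ran from 23894167 to 73839270 expected counts, with a median of 36444826. Levels are given as CPM, counts scaled to library size, after TMM scaling, and differences as log2 fold changes from 1 edgeR quasi-likelihood fit over all 16092 genes tested and all 63 libraries, with a term for RNA extraction. A change was called at a Benjamini-Hochberg adjusted p below 0.05. RNA was extracted with a Qiagen column or TRIzol, unevenly over groups: 1 of 4 E18.5, 17 of 21 adult, 7 of 7 T1ND, 3 of 4 T1D, 1 of 9 T2H and 3 of 7 T2D libraries were Qiagen. Within groups, 70 of the 82 subunit genes were lower in TRIzol libraries and 0 higher, against 17.4% of all genes called in either direction, with a median of -0.43 for the subunit genes and -0.044 for all genes. Uqcrq, a small complex III subunit, differed by -0.72 ± 0.13 (SE). Because of this term, a fitted fold can be larger or smaller than the ratio of the group means. The 10 beta cell markers took a mean of 19.985% to 42.97% of counts per group. Acinar markers took 0.102% in E18.5, 8.27% in P7, 6.98% in adults and 18.0% in T1D, and stromal markers 1.22% in P1 and 1.25% in P7. In bulk RNA, fewer cells of a type and less RNA per cell cannot be told apart.

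The median fold between extraction methods differed by transcript length, and subunit transcripts are short. Their median transcript length was 810 bases (GENCODE M21, all 82 with a length), against 2828.5 bases for the 16019 tested genes with one. For all genes under 1000 bases the median fold of TRIzol over Qiagen libraries was -0.38, for those of 1000 to 2000 bases -0.16 and for longer ones 0.025. For the subunit genes of the same classes (52, 22 and 8 genes) it was -0.47, -0.38 and -0.25. The plot of length classes gives each comparison beside the genes of like length. The part of transcript length in each result was not tested.

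**Figure D1:**
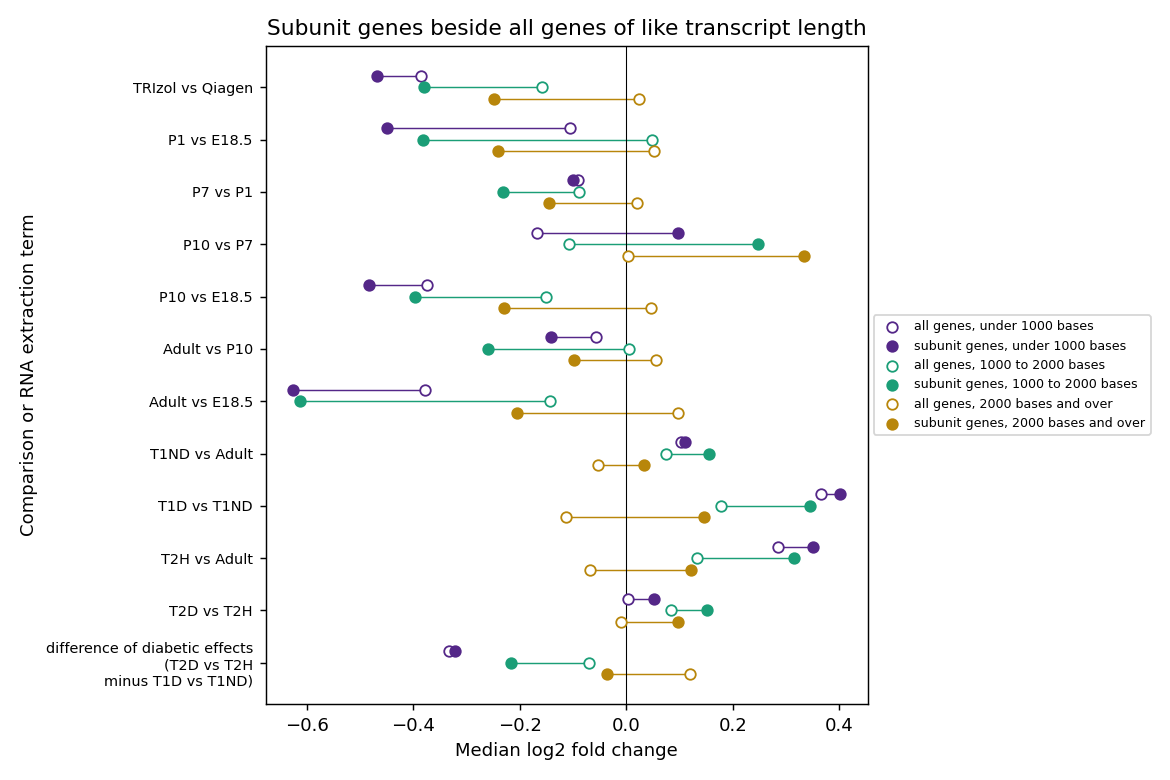
Median log2 fold change (horizontal axis) of all genes tested (open circles) and of the subunit genes (filled circles) in 3 classes of transcript length, for the extraction term and each comparison (vertical axis). In the adult against E18.5 the subunit medians of -0.63, -0.61 and -0.20 lie below the all-gene medians of -0.38, -0.14 and 0.10.

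Summed over the 84 genes, the level was 10229 ± 1963 CPM (SD, n = 4) in E18.5, 7822 ± 1843 in P1 (n = 3), 7406 ± 1261 in P7 (n = 3), 7815 ± 783 in P10 (n = 5) and 8185 ± 1413 in the adult (n = 21). It was 8920 ± 1849 in T1ND (n = 7), 10985 ± 2650 in T1D (n = 4), 8667 ± 2052 in T2H (n = 9) and 9279 ± 2845 in T2D (n = 7). Every pair of groups overlapped, and in each group the highest library was a Qiagen one. The order of the groups depended on the scale: as an unscaled share of all counts the genes took 1.42% in E18.5, 1.39% in P1, 0.792% in adults and 0.750% in T1D. Of the 78 genes with a mean of at least 10 CPM in some group, 39 had their highest group mean in T1D, 25 in E18.5 and 7 in T2D.

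**Figure D2:**
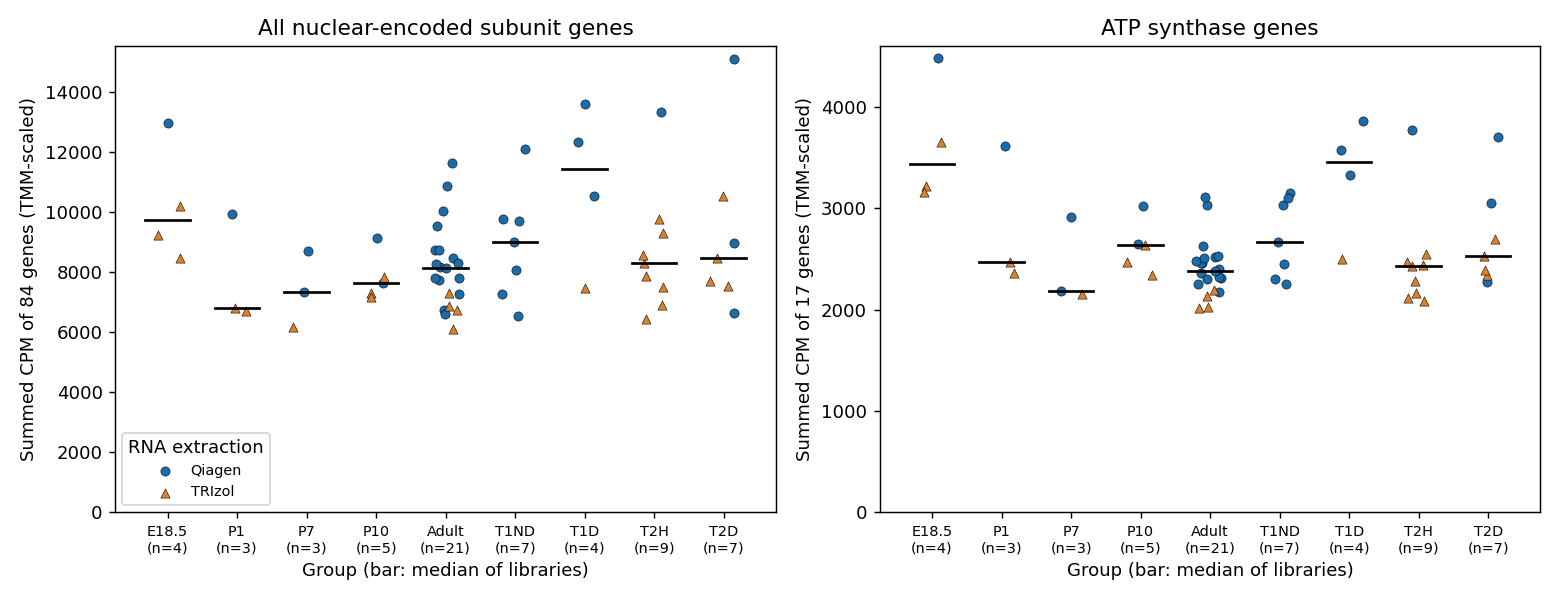
Summed CPM (TMM-scaled, vertical axis) of all 84 subunit genes (left) and of the 17 ATP synthase genes (right) in each library, by group (horizontal axis), with circles for Qiagen and triangles for TRIzol libraries and a bar at the group median. E18.5 and T1D have the highest medians in both panels, and the Qiagen library of E18.5 stands at 12978 for all genes.

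Per length, genes of complexes I and IV and of ATP synthase stood at the top. In E18.5, in TPM, which also divides by transcript length, Atp5b, the catalytic beta subunit of ATP synthase, had a mean of 822, Cox6a1 691, Cox8a of complex IV 572.2, Ndufb8 of complex I 546 and Ndufa1 of complex I 542.2. In adults, Cox8a had 331 TPM and Atp5b 305. In complex II the order was the same at both ages: the membrane anchor Sdhd (242 TPM in E18.5, 114 in adults), the iron-sulfur subunit Sdhb (163 and 76.2), the flavoprotein Sdha (72.1 in adults) and the anchor Sdhc (27.6 and 17.5).

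The comparison of adults with E18.5 asked how beta cells differ before birth and after maturation. Subunits of all 5 complexes were lower in the adult: 58 of 82 genes fell and 2 rose, against 34.8% of all genes called (19.2% lower, 15.6% higher). The median was -0.61, and 5 of the 82 genes lay above the median of all genes. By complex, 27 of 37 genes of complex I fell (median -0.59), 2 of 4 of complex II (-0.34), 5 of 8 of complex III (-0.72), 9 of 16 of complex IV (-0.57) and 15 of 17 of ATP synthase (-0.84). The 2 ATP synthase genes not called were Atp5s and Atp5sl. Without the extraction term 30 genes fell and 2 rose (31.6% of all genes called). Within Qiagen libraries alone, with 1 E18.5 library, the median was -0.67. Library totals in place of TMM factors put the median of all genes at -0.27 here, and the subunit median was then -0.90.

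In complex I the clearest fall was of Ndufa9, an accessory subunit between the matrix and membrane arms (chr6:126821721-126849136, minus strand). It stood at 120, 83.9, 81.1 and 91.2 CPM in the 4 E18.5 libraries and at 30.2, 43.1 and 66.4 CPM (lowest, median, highest) in adults. Every adult library lay below every E18.5 library, and the fold was -1.31 ± 0.15 (SE; edgeR adjusted p 1.7e-10). Ndufs4, which helps complete the NADH-oxidising end of the complex (chr13:114287795-114388258, minus strand), stood at 76.8, 57.3, 47.6 and 46.3 CPM in E18.5 and at 18.95, 30.8 and 42.5 CPM in adults. These ranges did not meet either, with a fold of -1.22 ± 0.14 (edgeR adjusted p 4.3e-10). The other called genes of complex I fell by 0.29 (Ndufa10) to 1.07 (Ndufa12), with Ndufa11 at -0.62 and Ndufb8 at -0.97, apart from the rare Ndufa4l2 at -2.34. Of the core subunits of complex I made in the nucleus, Ndufs1 (-0.038), Ndufv1 (-0.094), Ndufs7 (-0.18) and Ndufs3 (-0.37) were not called, and Ndufv2 (-0.59) and Ndufs8 (-0.71) fell. In all, 7 of the 82 genes had every adult library below every E18.5 library, against 6.99% of all genes.

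In complex II the subunits did not move together. Sdha, the succinate-oxidising subunit of complex II (chr13:74322254-74350280, minus strand), stood at 142, 130, 142 and 124 CPM in E18.5 and at 132, 198 and 294 CPM in adults, which overlap. It rose, with a fold of 0.58 ± 0.16 (edgeR adjusted p 0.0038), while its partners Sdhb and Sdhd fell, at -0.63 and -0.56, and Sdhc was at -0.12 and was not called. With a term for stromal counts the call on Sdha was lost (0.38, adjusted p 0.088), and likewise within Qiagen libraries (0.44, adjusted p 0.46) and with library totals in place of TMM (0.32, adjusted p 0.42). The call on Sdhb was lost within Qiagen (-0.85, adjusted p 0.061) and within TRIzol libraries (-0.47, adjusted p 0.075), and that on Sdhd within TRIzol libraries (-0.44, adjusted p 0.086).

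In complex III the Rieske protein and both large core subunits fell. Uqcrfs1, the iron-sulfur protein that hands electrons on to cytochrome c1 (chr13:30540308-30545362, minus strand), stood at 186, 124, 117 and 124 CPM in E18.5 and at 48.5, 70.8 and 109 CPM in adults. The groups did not overlap, and the fold was -1.14 ± 0.15 (edgeR adjusted p 1.9e-08). Uqcrc1, a core subunit (chr9:108936633-108949623, plus strand), stood at 373, 277, 292.1 and 248 CPM against 131, 178 and 217 CPM, also apart, with a fold of -0.93 ± 0.16 (edgeR adjusted p 6.7e-06). Uqcrb, Uqcr10 and Uqcrc2 fell by 0.95, 0.92 and 0.51, and Uqcr11, Uqcrh and Uqcrq were not called. Of the transcript of Uqcrb, 43.4% of its stretches of 50 bases also occur in other genes, so its reads could be shared. The same limit holds for other genes named in these results. Among them, the shares were 38.714% for Atp5f1, 32.047% for Cox5a, 31.062% for Ndufs5, 28.536% for Ndufa13 and 26.202% for Ndufa12. Ndufa9 had 1.433%, and Ndufs4 and Uqcrfs1 had none.

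In complex IV the muscle isoform Cox7a1 (chr7:30184144-30186078, plus strand) was low in E18.5, and every later ICR library lay below every E18.5 library. It stood at 5.59, 5.24, 3.73 and 3.24 CPM in E18.5, at 3.17, 1.49 and 1.17 in P1, at 0.339, 0.600 and 0.747 in P7, at 0.673, 0.918, 0.524, 0.877 and 1.38 in P10, and at 0.142, 0.317 and 1.25 CPM (lowest, median, highest) in adults. The fold of adults over E18.5 was -3.90 ± 0.48 (edgeR adjusted p 1.6e-09), and that of P10 over P7 was 0.92 and was not called. Its partner Cox7a2, used in most tissues, remained the abundant form, with 152, 131, 115 and 99.8 CPM in E18.5 and 54.9, 88.7 and 156 CPM in adults, a fold of -0.66. Cox6a1 (-0.90), Cox7c (-1.06), Cox5b (-0.87), Cox6b1 (-0.71), Cox5a (-0.60), Cox4i1 (-0.53) and the rare testis isoform Cox6b2 (-1.80) also fell, while Cox8a, Cox6c and Cox7b were not called. The striated muscle markers took at most 0.0017% of counts in any library.

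In ATP synthase genes of both the catalytic head and the rotor fell. Atp5b (chr10:128083273-128090391, plus strand) stood at 1147, 1010, 899.2 and 962 CPM in E18.5 and at 421, 586 and 695 CPM in adults, with no overlap and a fold of -0.93 ± 0.12 (edgeR adjusted p 3.5e-09). Atp5c1, the gamma subunit of the rotating shaft (chr2:10056016-10080510, minus strand), stood at 303, 216, 203.98 and 196 CPM against 95.2, 124 and 199 CPM, with a fold of -1.04 ± 0.14 (edgeR adjusted p 1.8e-08). A single E18.5 library lay inside the adult range. The 3 genes for the membrane ring subunit c, Atp5g1, Atp5g2 and Atp5g3, which encode the same mature protein, fell by 0.61, 0.84 and 0.88, and Atp5k fell by 0.89.

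**Figure D3:**
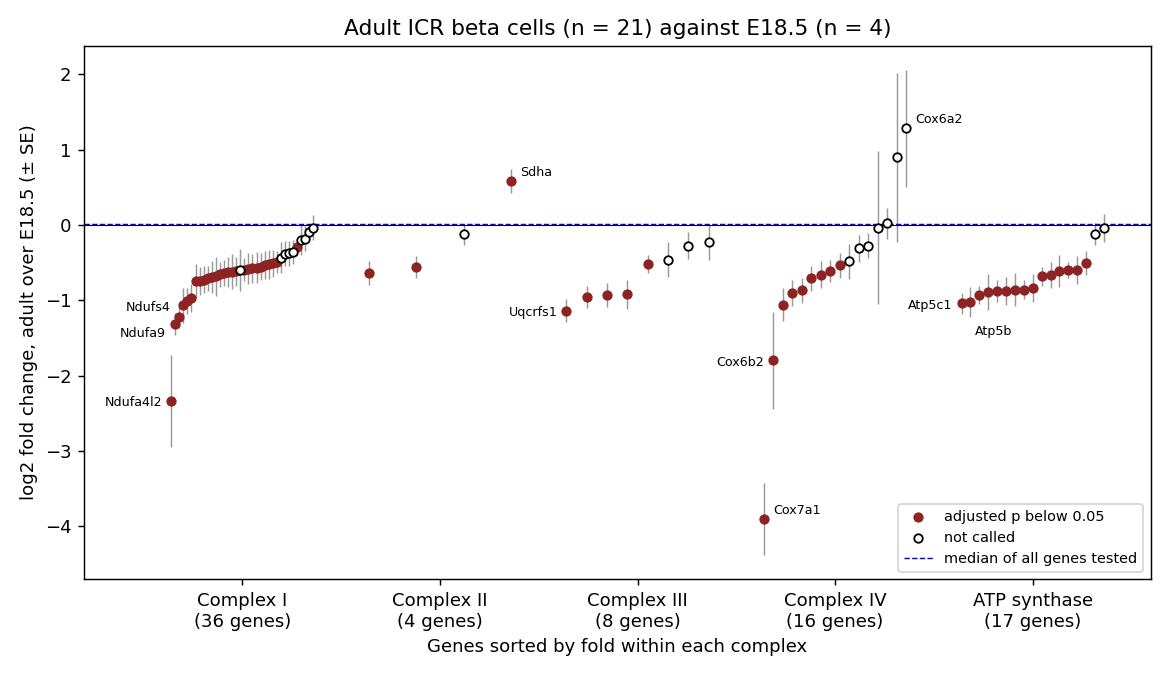
Log2 fold change of adult (n = 21) over E18.5 (n = 4) for 81 subunit genes (points, with SE as bars), sorted within each complex along the horizontal axis, with called genes filled and the median of all genes as a dashed line. All but a few points lie below the line, with Sdha at 0.58 the called point above it and Cox7a1 the lowest at -3.90.

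The steps between these ages were compared next. From E18.5 to P1, across birth, 4 genes fell and 1 rose (12% of all genes called, 3.42% lower and 8.63% higher), with a median of -0.43 and 3 of 82 genes above the median of all genes. Ndufs5, at 104 CPM in E18.5 and 64.2 in P1 on average, fell by 0.74, Ndufv3 by 0.67, Uqcrb by 0.64 and Atp5f1, which forms the stalk of ATP synthase, by 0.52. Leaving out libraries in turn gave 1 or 2 calls without E18.5 replicate 1, 2 or 3 or P1 replicate 2, 10 without P1 replicate 1, and 0 without P1 replicate 3. With library totals, which put the median of all genes at 0.44, 1 gene rose and 0 fell, with a subunit median of -0.019. Among genes under 1000 bases the median was -0.11 over all genes and -0.45 over subunit genes. For 1000 to 2000 bases these were 0.047 and -0.38, and for longer transcripts 0.052 and -0.24. The riser was Ndufa4l2, a hypoxia-responsive relative of Ndufa4, at 1.81, 0.572, 0.705 and 0.655 CPM in E18.5 and 0.807, 17.2 and 37.6 CPM in P1. The P1 libraries with 17.2 and 37.6 CPM were those with more than 1% stromal counts. Without the P1 and P7 libraries above 1%, which left P1 replicate 1 alone in its group, the fold of 4.04 became -0.029. The subunit median was then -0.41.

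Between P1 and P7, edgeR called 0 of 82 genes (0.106% of all genes), with 3 at an unadjusted p below 0.05 and 0 called by DESeq2. Between P7 and P10, 4 rose and 3 fell (29.4% of all genes, 10.5% higher and 18.9% lower), with a median of 0.15 that turned to -0.0096 with median-ratio scaling and to -0.26 with library totals, which put the median of all genes at -0.43, with 0 genes higher and 5 lower. The genes that fell were low-level transcripts: Ndufa4l2 at 8.80, 6.81 and 1.74 CPM in P7 and at most 0.404 in P10, with Cox6b2 at 3.44, 3.91 and 1.07 CPM against at most 0.448, and Cox4i2, an oxygen-responsive isoform, at 0.967, 1.94 and 0.174 CPM against at most 0.0437. Those that rose were Cox7a2l, a factor that joins complexes III and IV (0.80), Atp5s (0.72), Ndufs1, a core complex I subunit (0.55), and Ndufv3 (0.51). With a stromal term 0 genes were called (0.727% of all genes), and 3 and 2 were called without P7 replicate 1 and P7 replicate 2. With the stromal libraries left out, P7 replicate 3 stood alone in its group, and the median was 0.067.

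P10 against E18.5 joins groups with little stromal signal: 8 genes fell and 0 rose (6.53% of all genes, 3.52% lower and 3.01% higher), with a median of -0.45 and 6 of 82 genes above the median of all genes. Atp5b stood at 738, 763, 638, 679 and 573.16 CPM in P10, below all 4 E18.5 libraries, with a fold of -0.60 (edgeR adjusted p 0.0049). The others were Cox7a1 (-2.38), Uqcr10 (-0.89), Cox6a1 (-0.71), Atp5d (-0.60), Ndufs4 (-0.59), Atp5f1 (-0.58) and Cox5a (-0.58). In 12 genes every P10 library lay below every E18.5 library (8.26% of all genes), and in 1 above (6.89%). The count became 2 without E18.5 replicate 1 or P10 replicate 1, and 3 without E18.5 replicate 2. It was 48 when these groups were fitted alone (22% of all genes called). The calls on Uqcr10, Cox6a1, Ndufs4 and Cox7a1 were each lost without several of E18.5 replicates 1, 2 and 3 and P10 replicates 1, 2, 3 and 5 (adjusted p 0.052 to 0.111), and that on Atp5b was kept without any single library.

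From P10 to the adult, 11 genes fell and 1 rose (18.8% of all genes, 9.98% lower and 8.84% higher), with a median of -0.16. Ndufa9 stood at 63.1, 83.8, 62.9, 74.2 and 68.1 CPM in P10 and fell by 0.86 ± 0.14 (edgeR adjusted p 3.5e-06), with only the top adult libraries reaching the P10 range. Uqcrfs1 fell by 0.69, Atp5c1 by 0.65, Ndufb8 by 0.64, Ndufs4 by 0.63, Atp5g3 by 0.47, Ndufb4 by 0.46, Uqcrb by 0.41, Ndufv3 by 0.36, Atp5b by 0.32 and Cox7a1 by 1.53. The call on Atp5b was lost without P10 replicate 1, 2, 3 or 4 (adjusted p 0.0554 to 0.0775) and that on Cox7a1 without P10 replicate 5 (0.092). Without the extraction term 4 genes were called (19.1% of all genes) and the median was 0.029.

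The muscle isoform Cox6a2 of complex IV was the most variable subunit gene among adults. It lies at chr7:128205435-128206387 on the minus strand, inside Itgad on the other strand, where 3.33% of the 50-base stretches of its transcript also occur in Itgad. The libraries keep no strand, so reads from these stretches cannot be told apart. In adults it ranged from 2.67 through a median of 29.3 to 88.7 CPM. A gap of 2.98-fold parted 9 libraries at 2.67 to 9.28 CPM from 12 at 27.7 to 88.7 CPM. Both sides held females and males (4 and 5 on the low side, 7 and 5 on the high side), and the low side was all Qiagen while the high side had 8 Qiagen libraries. In T2H, 2 libraries were at 4.86 and 6.53 CPM and 7 at 27.1 to 188 CPM. All T1ND libraries (3.63 to 9.13 CPM), T1D libraries (4.98, 7.80, 5.91 and 15.03 CPM) and T2D libraries (2.43 to 10.9 CPM) were below those higher sets. The common isoform Cox6a1 did not part in this way, at 112, 158 and 265 CPM (lowest, median, highest) in adults. A range of at least 5-fold within a group was seen in 9 of 685 pairs of gene and group with a mean of at least 10 CPM. Cox6a2 gave 4 of these.

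**Figure D4:**
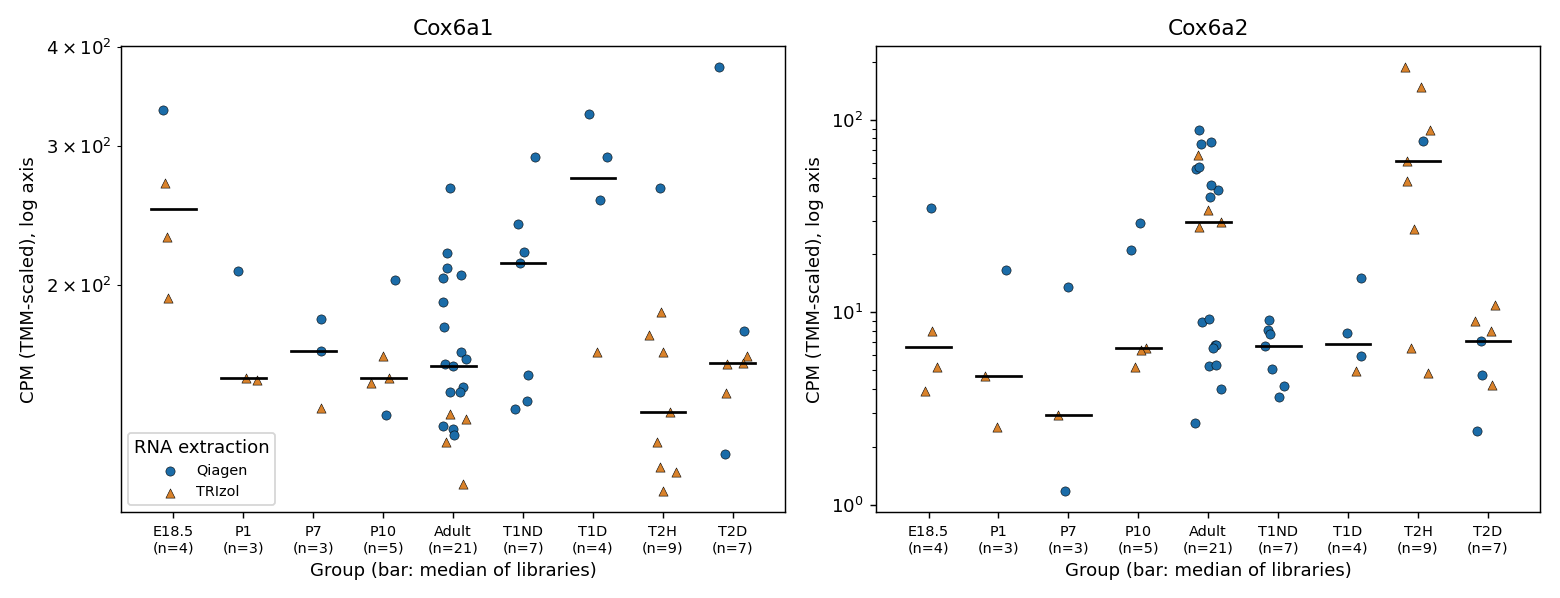
Level of Cox6a1 (left) and Cox6a2 (right) in each library (CPM, TMM-scaled, log axis) by group, with circles for Qiagen and triangles for TRIzol libraries and a bar at the group median. Adult and T2H libraries of Cox6a2 fall on both sides of a gap, while all T1ND and T2D libraries lie at or below 10.9 CPM, and adult libraries of Cox6a1 range from 112 to 265 CPM.

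Adult strains without diabetes were compared next. T1ND against ICR adults asked how NOD-ICR mice labelled non-diabetic differ from ICR: 3 genes rose and 1 fell (13.9% of all genes, 9.38% higher and 4.48% lower), with a median of 0.12, or -0.015 with library totals, which put the median of all genes at -0.12, with 0 genes higher and 1 lower. Among genes under 1000 bases the median was 0.10 over all genes and 0.11 over subunit genes. For 1000 to 2000 bases these were 0.074 and 0.15, and for longer transcripts -0.054 and 0.034. Cox6a2 fell by 2.52 ± 0.67 on the log2 scale (edgeR adjusted p 0.0057), from a mean of 33.0 CPM to 6.37 CPM, and all 7 T1ND libraries lay within the low side of the adult gap. Ndufa13 (0.57), Ndufa6 (0.42) and Cox5a (0.33) rose. T1ND libraries also held more counts of other cell types on average: 11.96% acinar against 6.98% in adults, 0.0870% myeloid against 0.00809%, 0.174% duct against 0.0495%, and 0.821% alpha, delta and PP cell markers against 0.292%. The part of these cells in the result was not tested. These calls were lost without T1ND replicate 6 (adjusted p 0.18, 0.28 and 0.32), which had 1 of the 10 highest acinar shares, and without those 10 libraries (adjusted p 0.54, 0.52 and 0.73) the median was -0.038. Calls on Ndufa6 and Cox5a, close to the threshold, were also lost without many single adult libraries, including replicates 1, 4, 6, 7, 8, 9, 13 and 21, each of which left 2 genes called.

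T2H against ICR adults compares BTBR Ob/+ with ICR: 9 genes rose and 0 fell (5.2% of all genes, 3.37% higher and 1.83% lower), with a median of 0.33 (-0.10 with library totals, which put the median of all genes at -0.43, with 0 genes higher and 1 lower) and 74 of 82 genes above the median of all genes. They were Uqcrfs1 (0.51), Sdhc (0.47), Atp5j2 (0.47), Ndufb9 (0.46), Cox5b (0.45), Atp5f1 (0.45), Cox5a (0.43), Ndufs4 (0.40) and Atp5c1 (0.37), 1 or more from each complex. Uqcrfs1 stood at 57.3, 84.5 and 137 CPM (lowest, median, highest) in T2H and at 48.5, 70.8 and 109 CPM in adults, which overlap. Extraction was close to confounded with this pair, with 8 of 9 T2H libraries from TRIzol. Without the extraction term 0 genes were called (6.33% of all genes), with a median of 0.032. Within TRIzol libraries alone 0 were called (0.56% of all genes). Within Qiagen libraries alone, with 1 T2H library, the median was 0.71. Without T2H replicate 9, the Qiagen library, 1 gene was called. In turn 4 or 5 were called without Adult replicate 12 or 13 or T2H replicate 2, 3 or 8, and 14 to 17 without Adult replicate 11 or 14 or T2H replicate 5 or 7. The call on Atp5j2 was lost without most single libraries (adjusted p 0.0515 to 0.228), and that on Ndufb9 without Adult replicate 13 or T2H replicate 8 or 9 (0.054 to 0.163). Genes under 1000 bases had a median of 0.28 over all genes and 0.35 over subunit genes. For 1000 to 2000 bases these were 0.13 and 0.32, and for longer transcripts -0.069 and 0.12.

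Diabetic and non-diabetic NOD-ICR mice were compared for the type 1 model. In T1D 3 genes rose and 0 fell (1.28% of all genes, 0.485% higher and 0.795% lower), with a median of 0.36 and 75 of 82 genes above the median of all genes. With library totals, which put the median of all genes at -0.41, it was 0.0073. Cox5a, which sits on the matrix face of complex IV (chr9:57521274-57532426, plus strand), stood at 82.0, 126, 105 and 144 CPM in T1D and at 51.3, 67.8 and 108 CPM (lowest, median, highest) in T1ND. The means were 114 ± 26.5 (SD, n = 4) and 72.3 ± 18.99 CPM (n = 7), the ranges overlapped, and the fold was 0.73 ± 0.17 (edgeR adjusted p 0.018). Ndufs4 stood at 41.4, 55.7, 54.2 and 73.2 CPM against 27.8, 37.4 and 47.8 CPM, with 0.69 ± 0.17 (edgeR adjusted p 0.022). Uqcrfs1 stood at 100, 150, 126 and 159 CPM against 62.3, 87.4 and 113 CPM, with 0.68 ± 0.18 (edgeR adjusted p 0.035). For Ndufs4 and Uqcrfs1 a single T1D library, replicate 1, which is the TRIzol library, lay inside the T1ND range, and for Cox5a replicates 1 and 3 did. Replicate 1 also came from the mouse with glucose above the limit and held the highest myeloid share of T1D (0.423%). The part of each was not tested.

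These calls in T1D rested on few libraries. The count was 0 without T1ND replicate 1, T1D replicate 2 or T1D replicate 4, 1 without T1ND replicate 7 or T1D replicate 1, 7 without T1ND replicate 5 and 11 without T1ND replicate 6. The call on Uqcrfs1 was also lost without T1ND replicate 2 or 3 or T1D replicate 3 (adjusted p 0.0669 to 0.0743). Without the extraction term (0.491% of all genes called), with library totals in place of TMM (0.907%), or with these groups fitted alone (0%), 0 genes were called. DESeq2 called 9 (3.58% of all genes). T1D libraries held 18.0% acinar counts and 0.236% myeloid counts on average, T1ND libraries 11.96% and 0.0870%, and the part of these cells in the result was not tested. Genes under 1000 bases had a median of 0.37 over all genes and 0.40 over subunit genes. For 1000 to 2000 bases these were 0.18 and 0.34, and for longer transcripts -0.11 and 0.15.

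Ob/Ob against Ob/+ mice addressed the type 2 model. In T2D, 7 genes rose and 5 fell (18.3% of all genes, 9.75% higher and 8.5% lower), with a median of 0.09. This split changed with the processing: 13 rose and 1 fell within TRIzol libraries alone (15.7% of all genes called). With library totals 13 rose and 2 fell (17.2%), with medians of 0.29 for all genes and 0.32 for the subunit genes. With an acinar term 3 rose and 5 fell (16.7%). Without the 10 libraries of highest acinar share 2 rose and 6 fell (15.2%), with a median of 0.017. The fall was largest for Cox6a2, by 3.53 ± 0.74 on the log2 scale (edgeR adjusted p 0.00042), from a mean of 72.2 CPM to 6.64 CPM. Within Qiagen libraries alone, with 1 T2H library, the fold was -4.02 and was not called (adjusted p 0.31).

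The genes that rose in T2D were subunits of complexes I, II and III. Ndufa1, a small membrane-arm subunit (chrX:37187588-37191163, minus strand), ranged from 124 through 247 to 587.1 CPM in T2D and from 87.2 through 121 to 359 CPM in T2H, with a fold of 0.88 ± 0.25 (edgeR adjusted p 0.0092). Ndufc2, also of the membrane arm (chr7:97400003-97407802, plus strand), ranged from 58.3 through 103 to 168 CPM against 37.8 through 58.6 to 128 CPM, with 0.70 ± 0.19 (edgeR adjusted p 0.0049). For both the top T2H library was replicate 9, its Qiagen library, and within Qiagen libraries alone, with 1 T2H library, the folds were -0.19 and -0.24. Within TRIzol libraries Ndufa1 stood at 190 to 368 CPM in T2D (n = 4) and at 87.2 to 158 CPM in T2H (n = 8), which do not overlap. Ndufa12 (0.64), Ndufb5 (0.51), Uqcrc1 (0.43), Sdhd (0.40) and Ndufv1 (0.28) rose as well, and Atp5s (-0.46), Cox6c (-0.46) and Atp5d (-0.33) fell. The call on Sdhd was lost without T2D replicate 1 (adjusted p 0.15) or T2H replicate 5 (0.073). That on Ndufa12 was lost without T2H replicate 4, 5, 6 or 7 or T2D replicate 1, 4 or 7 (0.0592 to 0.212), and that on Uqcrc1 without T2H replicate 3, 4, 5, 6 or 8 or T2D replicate 1 or 7 (0.0503 to 0.413). Atp5d lost its call without T2H replicate 2, 3, 6, 8 or 9 or T2D replicate 1, 2, 4 or 5 (0.0504 to 0.145), and Atp5s without most single libraries of either group (0.0516 to 0.0902). In all, 6 genes were called without T2D replicate 1, 7 without T2H replicate 3 or 6, and 1 when these groups were fitted alone (9.89% of all genes). The median of 0.09 turned to -0.032 without T2D replicate 7.

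The diabetic effects of the models were then set against each other in the same fit, as T2D over T2H minus T1D over T1ND. Of 82 genes, 4 were lower and 0 higher (2.14% of all genes, 1.09% lower and 1.05% higher), with a median of -0.23, or 0.32 with library totals, which put the median of all genes at 0.71. Among genes under 1000 bases the median was -0.33 over all genes and -0.32 over subunit genes. For 1000 to 2000 bases these were -0.069 and -0.22, and for longer transcripts 0.12 and -0.037. Cox6a2 differed by -4.04 ± 1.06 (edgeR adjusted p 0.025), with 0.50 in T1D and -3.53 in T2D. Atp5g3 (chr2:73908447-73911326, minus strand) differed by -0.89 ± 0.22 (edgeR adjusted p 0.015), with 0.53 and -0.36, neither called alone. Atp5d, the delta subunit of the shaft (chr10:80138632-80145818, plus strand), differed by -0.74 ± 0.19 (edgeR adjusted p 0.023), with 0.40 and -0.33. Atp5g3 stood at 143, 165, 196 and 275 CPM in T1D, and at 111, 138 and 170 CPM in T1ND, 89.6, 113 and 181 in T2D and 98.5, 136 and 250 in T2H (lowest, median, highest). All 4 groups overlapped. Without T1D replicate 4, 0 genes were called. Within Qiagen libraries alone, with 1 T2H library, the median was -0.77. Leaving out the 10 libraries of highest acinar share left T1D replicate 2 alone in its group, and the median was -0.62.

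**Figure D5:**
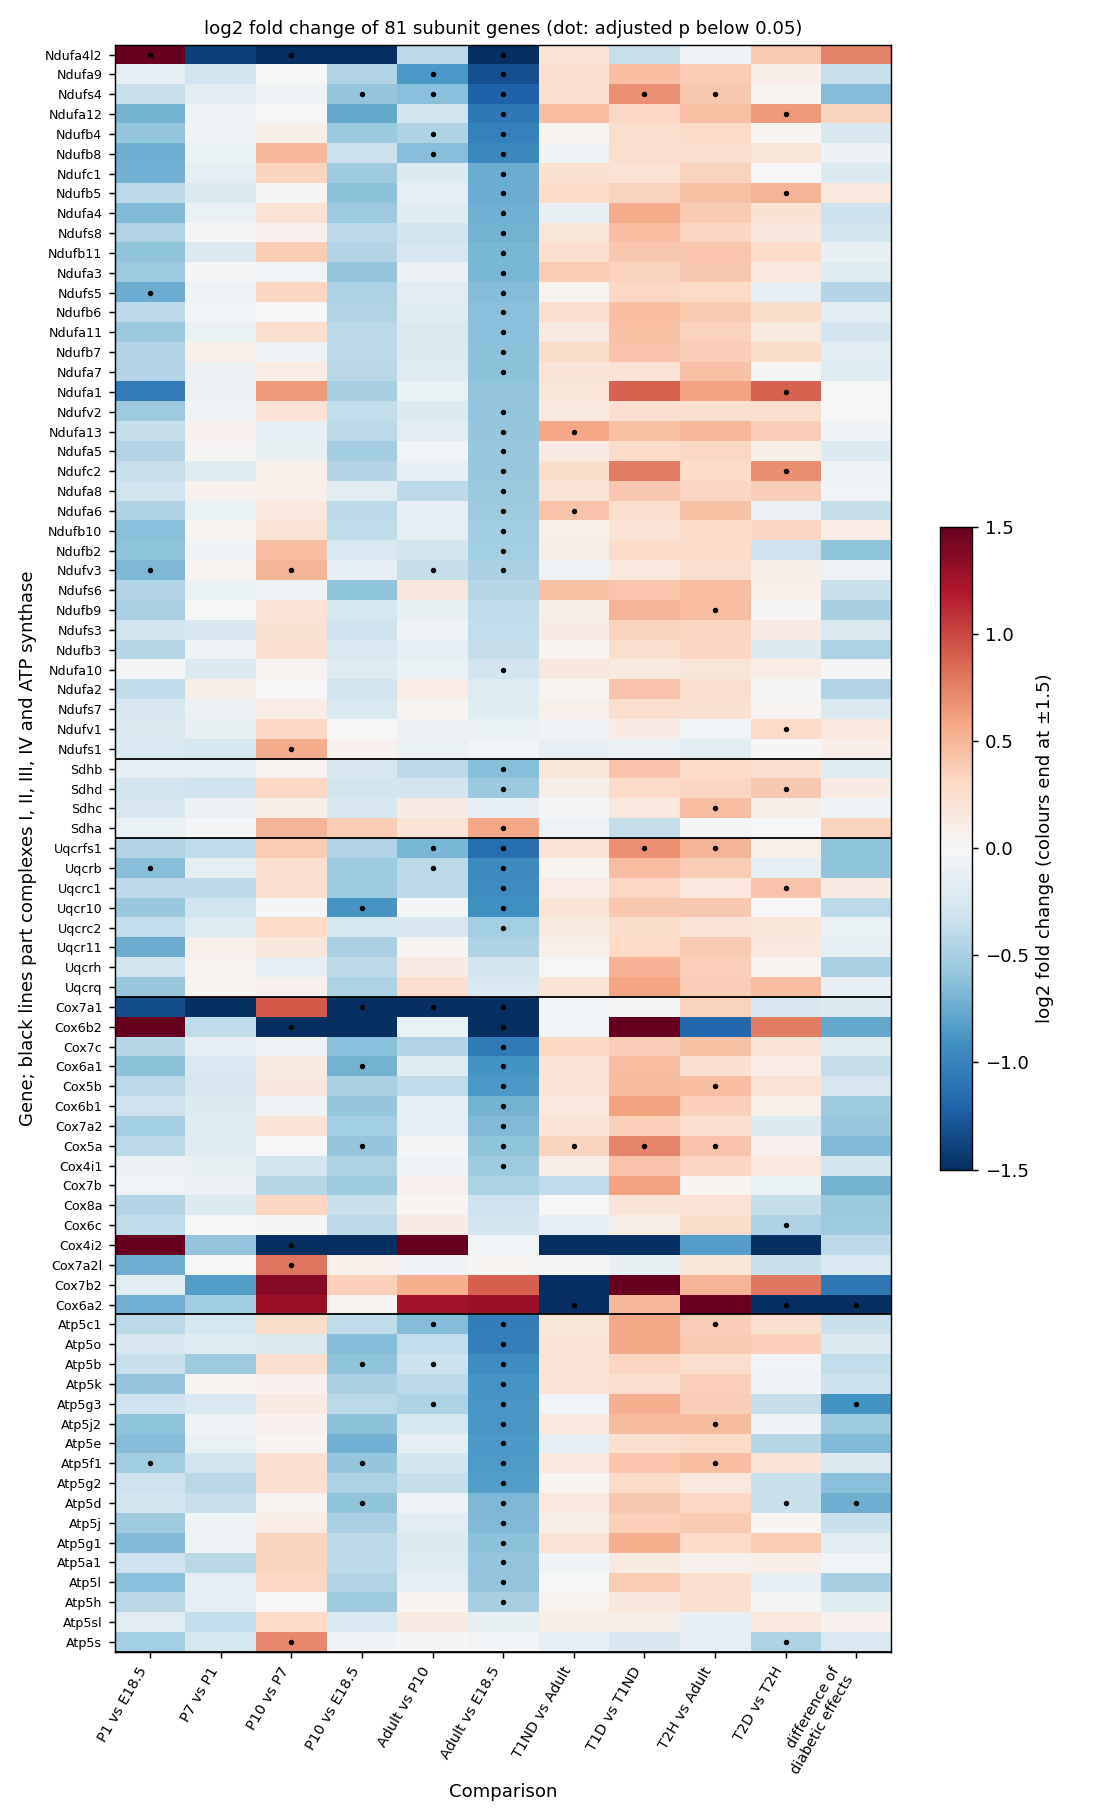
Log2 fold change (colour, ending at ±1.5) of 81 subunit genes (rows, by complex) in the 11 comparisons (columns), with a dot where the adjusted p was below 0.05. The column of adult over E18.5 is blue through all complexes with 59 dots, and the columns of T1D over T1ND and T2H over adult are mostly red with 3 and 9 dots.

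Across comparisons, Cox5a and Ndufs4 were called most often, in 5 of the 10 comparisons of groups each: both fell with age and rose in T1D and T2H. Cox5a also rose in T1ND against adults. The limit on stretches shared with other genes, given above for Cox5a, holds for each of its calls. Without the extraction term the calls on both in T1D and T2H were lost. Uqcrfs1 was called in 4. Several of these comparisons share groups, so the repeats are not independent. Sdha was called in the adult against E18.5 and in no other comparison.

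Other mitochondrial genes were counted beside the subunits. Between E18.5 and the adult, where 34.8% of all genes were called (19.2% lower, 15.6% higher), 3 of 45 assembly factors fell and 7 rose (22.2% called). In the same comparison 9 of 18 genes of pyruvate dehydrogenase and the citric acid cycle fell and 1 rose (55.6%), 9 of 13 electron carriers and shuttles fell and 0 rose (69.2%), and 1 of 14 regulators of mitochondrial biogenesis moved each way (14.3%). The shares of assembly factors and regulators were below that of all genes. The complex IV assembly factor Surf1 rose by 0.75 and the nuclear receptor Esrra, a regulator of these genes, by 0.70. The adenine nucleotide carrier Slc25a5 fell by 0.83, the ATP synthase inhibitor Atpif1 by 1.03 and the pyruvate dehydrogenase subunit Pdhb by 0.82. In T1D, where 1.28% of all genes were called, 2 of the 18 genes and 1 of the 13 fell and 0 rose: pyruvate carboxylase Pcx (-1.32), isocitrate dehydrogenase Idh2 (-0.61) and the glycerol phosphate shuttle enzyme Gpd2 (-0.95), with edgeR adjusted p of 0.013 to 0.0499. With the NOD-ICR groups fitted alone, or within Qiagen libraries alone, 0% of all genes were called for T1D over T1ND. The calls on these 3 genes were therefore lost there, and the other alternatives were not followed for them. In T2D, where 18.3% were called, the same 3 genes fell (Pcx at -1.62, Idh2 at -0.74, Gpd2 at -0.81). The lists held as many or more rises there, with Sucla2, a subunit of succinyl-CoA ligase (0.50), and Pdhb (0.41) among the 18 genes, and the electron carrier Etfb (0.95) and the mitochondrial carrier Ucp2 (0.44) among the 13. Of assembly factors, 7 of 45 rose and 1 fell in T2D, a share of 17.8% that is close to that of all genes, and 0 were called in T1D, with 6 at an unadjusted p below 0.05.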

How the data were processed

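Per the labels' protocols, cDNA came from a SMART-Seq v4 kit and indexed libraries from Nextera XT, so strand was lost. Per the submitters' processing notes, bcl2fastq 2.20.0.422, Bowtie 1.2.2, RSEM 1.3.0 and the mouse build mm10 were used. The authors deposited expected counts for 20306 genes (48.55% of values not whole), rounded here. The authors' normalized table was not used. In R 4.3.3 with edgeR 4.0.16, genes were kept with filterByExpr by group (16092), scaled with TMM, and fitted with glmQLFit (robust) and glmQLFTest, two-sided, with 9 group means and an extraction term. For each of 11 comparisons, p-values were adjusted over all genes (Benjamini-Hochberg) and called below 0.05. The fit was checked on simulated data. TPM used GENCODE M21 principal transcript lengths. DESeq2 1.42.0, other scaling, filters, covariates and samples were alternatives. Replicate numbers only follow the order of the labels, and no libraries were identical. Named were the 3 largest called rises and falls at 10 CPM or more, the called gene of smallest adjusted p per complex, isoform partners, Sdha to Sdhd, Atp5b, outlying genes and, from each pathway list, the 2 of smallest adjusted p. Others complete the sets of called genes, or were chosen after their values were seen. The members and lists were chosen with earlier results of these data known. Of the 84 genes, 1 is not reported here by itself and is left out of the figures of single genes, but it is part of the counts, medians and sums.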

Additional observations from a re-analysis of the deposited data

Results flagged for a closer look

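In groups of 4 to 10 libraries, each of 44 values (39 named genes and 5 complex sums) was searched for a library far from the others, in 264 sets of values. This found 50. The limits used pass about 1 in 20 sets when values are normally distributed. Whether CPM within these groups are so distributed was not tested, so the count is not set against chance. Values of genes and sums within a library are not independent.

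Most lay in 2 Qiagen libraries, T2H replicate 9 and T2D replicate 7, which also stood apart in other ways. T2H replicate 9 came from the mouse of highest glucose (271 mg/dl), age (179 days) and weight (60.4 g) in its group. It had the highest beta cell share (62.3%) and the lowest acinar share (0.101%) there. T2D replicate 7 had the highest beta cell share of its group (53.9%). The part of each was not tested. T2H replicate 9, the only Qiagen library of its group, stood above the other 8 in complex I for Ndufs5 (143 CPM), Ndufv3 (146), Ndufa4 (214), Ndufs4 (52.9), Ndufa13 (136), Ndufb9 (253), Ndufa1 (359), Ndufc2 (128) and Ndufa12 (135). It also stood above them for Sdhb (138), Uqcrb (165), Cox6b1 (184), Cox7a2 (159), Cox6a1 (266), Cox5a (94.0), Atp5c1 (221.8), Atp5j2 (144), Atp5d (215), Atp5g3 (249.8) and Atp5g1 (458), and for the sums of complex III (1373) and ATP synthase (3774). T2D replicate 7 stood above its group for Ndufs5 (142), Ndufv3 (138), Ndufa4 (257), Ndufa6 (108), Ndufa4l2 (0.587), Uqcrb (161), Uqcr10 (160), Cox6b1 (237), Cox7a1 (1.41), Cox7a2 (159), Cox6a1 (377), Cox5a (115) and Atp5j2 (178), and for the sum of complex IV (2454).

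E18.5 replicate 1, the only Qiagen library of its group, was high for Ndufa4l2 (1.81 CPM), Sdhd (252), Uqcrfs1 (186.5) and Cox6a2 (34.8), and low for Ndufs1 (71.0). P10 replicate 2, also Qiagen, was high for Ndufs5 (102), Sdhb (133), Ndufa6 (51.8) and Atp5g3 (213). T1ND replicate 6 was high for Cox7a1 (1.05), Ndufa13 (194) and Ndufa12 (198), and T2H replicate 1 for Ndufa4l2 (0.735) and the sum of complex II (646).

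The diabetic effects of the models differed, by the contrast of effects in the edgeR fit, for Cox6a2 (-4.04), Atp5g3 (-0.89) and Atp5d (-0.74). These calls were lost without T1D replicate 4. For Cox6a2 the non-diabetic groups were unlike: T1ND libraries stood at 3.63 to 9.13 CPM and T2H libraries at 4.86 to 188 CPM. T2D and T2H also differed in strain label and age.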

How the results depend on the processing

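Counts of called subunit genes and their median log2 folds were recomputed under 13 alternatives and with each library left out. Percentages in brackets below are the shares of all genes called under the same setting. In the adult against E18.5 (60 called, median -0.61) every alternative and omission kept a negative median. All but the Qiagen libraries alone, with 1 E18.5 library, kept at least 32 calls. Calls on Ndufa9, Ndufs4, Uqcrfs1, Cox7a1 and Atp5b there, and on Cox6a2 between T1ND and adults, held in all that could be fitted. Depth was not the limit for these genes, but Cox7a1, Ndufa4l2, Cox4i2 and Cox6b2 rest on a few CPM. The cause was not tested for any change below. Values under 3 of the alternatives (without the stromal libraries, without the 10 libraries of highest acinar share, and library totals) were chosen after seeing the data.

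DESeq2 called 4 genes for P10 over P7 (26.4%, median -0.0097), 13 for P10 over E18.5 (8.63%), 9 for T1D over T1ND (3.58%) and 16 for T2H over adult (7.94%). An adjusted p that DESeq2 gave as missing stayed missing. Median-ratio factors gave 1 call for P1 over E18.5 (11.6%) and 3 for P10 over P7 (27.9%, median -0.0096). Without the extraction term there was 1 call for P1 over E18.5 (9.76%), 3 for P10 over E18.5 (4.88%) and 4 for adult over P10 (19.1%, median 0.029). The same fit gave 32 for adult over E18.5 (31.6%) and 0 for T1D over T1ND (0.491%). It gave 0 for T2H over adult (6.33%, median 0.032) and 1 for the difference of diabetic effects (1.79%).

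Qiagen libraries alone gave 0 calls for P10 over P7 (2.18%, median -0.061), adult over P10 (6.1%, 0.034) and T1D over T1ND (0%). For T1ND over adult 1 gene was called (12.3%). E18.5, P1 and T2H had 1 Qiagen library each. Medians there were -0.45 for P1 over E18.5, -0.68 for P10 over E18.5 and -0.67 for adult over E18.5. They were 0.71 for T2H over adult, -0.34 for T2D over T2H and -0.77 for the difference. Folds that turned there were those of Ndufa4l2 for P1 over E18.5 (-1.14) and of Ndufa1 (-0.19), Ndufc2 (-0.24) and Ndufa12 (-0.14) for T2D over T2H. TRIzol libraries alone gave 8 for P1 over E18.5 (14.1%), 2 for P10 over E18.5 (3.32%) and 6 for adult over P10 (7.19%). They gave 0 for T2H over adult (0.56%) and 14 for T2D over T2H (15.7%, 13 higher). With 1 TRIzol library in P7, the median of P10 over P7 was 0.18. T1ND has no TRIzol library, so its comparisons and the difference gave no value there.

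A term for column names ending in an S number above 60 gave 3 for P1 over E18.5 (12.1%), and an acinar term 4 for P10 over P7 (21.5%). A stromal term gave 0 for P1 over E18.5 (0.373%) and 0 for P10 over P7 (0.727%). Fits of the compared groups alone gave 19 for P1 over E18.5 (10.8%), 2 for P10 over P7 (11.6%) and 48 for P10 over E18.5 (22%). They gave 0 for T1D over T1ND (0%), 1 for T2D over T2H (9.89%) and 1 for the difference (0.909%). Leaving out the stromal libraries left 1 library in each of P1 and P7. Medians were then -0.41 for P1 over E18.5 and 0.067 for P10 over P7, and Ndufa4l2 was at -0.029 for P1 over E18.5. Without the 10 libraries of highest acinar share there were 3 for P1 over E18.5 (10.3%), 1 for T1ND over adult (6.5%, median -0.038) and 14 for T2H over adult (4.36%). With T1D replicate 2 then alone in its group, medians were 0.64 for T1D over T1ND and -0.62 for the difference.

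Library totals gave 1 for P1 over E18.5 (10.3%, median -0.019), 3 for P10 over E18.5 (2.83%) and 1 for T1ND over adult (8.33%, -0.015). They gave 0 for T1D over T1ND (0.907%, 0.0073), 1 for T2H over adult (15.2%, -0.10) and 1 for the difference (7.33%, 0.32). Medians were -0.26 for P10 over P7 and -0.90 for adult over E18.5.

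Leaving out single libraries gave 0 to 10 calls for P1 over E18.5 (median -0.51 to -0.39), 0 to 0 for P7 over P1 (-0.17 to -0.081), 2 to 10 for P10 over P7 (0.10 to 0.25), 2 to 9 for P10 over E18.5 (-0.50 to -0.38), 8 to 14 for adult over P10 (-0.25 to -0.13) and 45 to 62 for adult over E18.5 (-0.68 to -0.57). It gave 1 to 6 for T1ND over adult (0.0048 to 0.19), 0 to 11 for T1D over T1ND (0.25 to 0.49), 1 to 17 for T2H over adult (0.24 to 0.38), 6 to 13 for T2D over T2H (-0.032 without T2D replicate 7, to 0.16) and 0 to 6 for the difference (-0.38 to -0.14). No paired analysis was possible because the groups compared share fewer than 2 numbers in their titles (1 number occurs in both an adult and a T2D title).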
